A study of Mus musculus with 6 samples.

Results

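Adhesion molecules let dendritic cells hold on to T cells, to vessel walls and to each other. The genes described here are the non-integrin ones: Cadm1, Icam1, Icam2, Vcam1, Pecam1, Alcam and F11r, whose proteins carry immunoglobulin domains, Epcam, an epithelial adhesion molecule, and Selplg, which encodes the selectin ligand PSGL-1. They were taken by gene symbol from a table of 28853 probe sets, where each of the 9 genes had 1 probe set with that symbol alone, among 19938 genes tested. Levels were measured on 6 Affymetrix arrays, 2 for each of 3 cell populations that were sorted out of wild-type mouse spleen. The populations were CD24+CD172a- type 1 conventional dendritic cells (cDC1), which present antigen taken up from outside to CD8 T cells, and the CD24+CD172a+ and CD24-CD172a+ subsets of type 2 cells (cDC2), which present mainly to CD4 T cells. The labels name no treatment. The strain, age and number of mice and the purity of the sorts are not given in the sources used here, and the labels leave unsaid whether replicate arrays stand for separate mice. The p-values therefore measure only the spread between these arrays, which may be technical. Precision is limited by having 2 arrays a group.

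These proteins act by binding a partner on the opposite cell. ICAM1, ICAM2 and JAM-A (the product of F11r) bind the integrin LFA-1 on lymphocytes, and VCAM1 binds the integrin VLA-4. CADM1 binds itself and CRTAM, a receptor on activated T and NK cells, ALCAM binds CD6 on T cells, and PECAM1 binds itself. PSGL-1 binds selectins once enzymes have added the right sugars and sulphates. CADM1 is used as a surface marker of cDC1, EPCAM marks Langerhans cells of the skin, and VCAM1 is made by activated endothelium and by splenic macrophages.

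The promoter of Icam1 is shown because ICAM1 is the textbook case of an adhesion molecule switched on by the transcription factor NF-κB during inflammation, and its level across these populations is described further on. Promoter sequences of 4 of the 9 genes, Alcam, Epcam, F11r and Icam1, were found by symbol in a RefSeq table of build GRCm38.p6. The 250 bases before the annotated start of Icam1 lie at chr9:21015690-21015939 on the plus strand and read 5′ to 3′ as follows, with the letters GGAAATTCC, a form of the NF-κB motif, in capitals:
Icam1: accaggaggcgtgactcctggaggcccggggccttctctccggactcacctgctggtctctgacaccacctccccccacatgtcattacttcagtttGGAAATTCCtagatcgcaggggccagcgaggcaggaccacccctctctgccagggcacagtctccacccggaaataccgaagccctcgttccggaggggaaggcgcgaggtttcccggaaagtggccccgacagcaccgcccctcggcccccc
The match runs from 153 to 145 bases before the start. Searched on both strands, these letters stood in 94 of 32851 windows of the same length (0.286%), and in none of those of Alcam, Epcam and F11r. Other forms of the NF-κB motif were not searched, so the windows of Alcam, Epcam and F11r are not shown to lack it. A match is a description of the sequence and does not show that a factor binds there.

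Levels are log2 of the deposited intensity and are compared between populations. Each gene has its own probes, so a gene's rank on an array is no measure of its expression relative to other genes. The 25th percentile of all values (3.93) and their median (5.02) serve only to say where a reading lies on the scale of these arrays. The word called is used for an adjusted p under 0.05 in limma's fit across all genes. The genes of the sort markers followed the sorts. Cd24a, which encodes CD24, was 4.14-fold higher in CD24+CD172a+ than in CD24-CD172a+ cDC2, and Sirpa, which encodes CD172a, was 31.1-fold and 32.2-fold higher in them than in cDC1. Of 11 cDC2 markers listed, 11 were called higher in each cDC2 population than in cDC1, and of 10 cDC1 markers, 10 and 9 were called lower. Of all genes, 13.6% were called in CD24+CD172a+ and 15.7% in CD24-CD172a+ cDC2 against cDC1. Across genes, arrays of a group correlated at 0.992 to 0.993, the arrays of both cDC2 groups with each other at 0.988 to 0.989, and cDC1 with cDC2 arrays at 0.959 to 0.963.

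**Figure D1:**
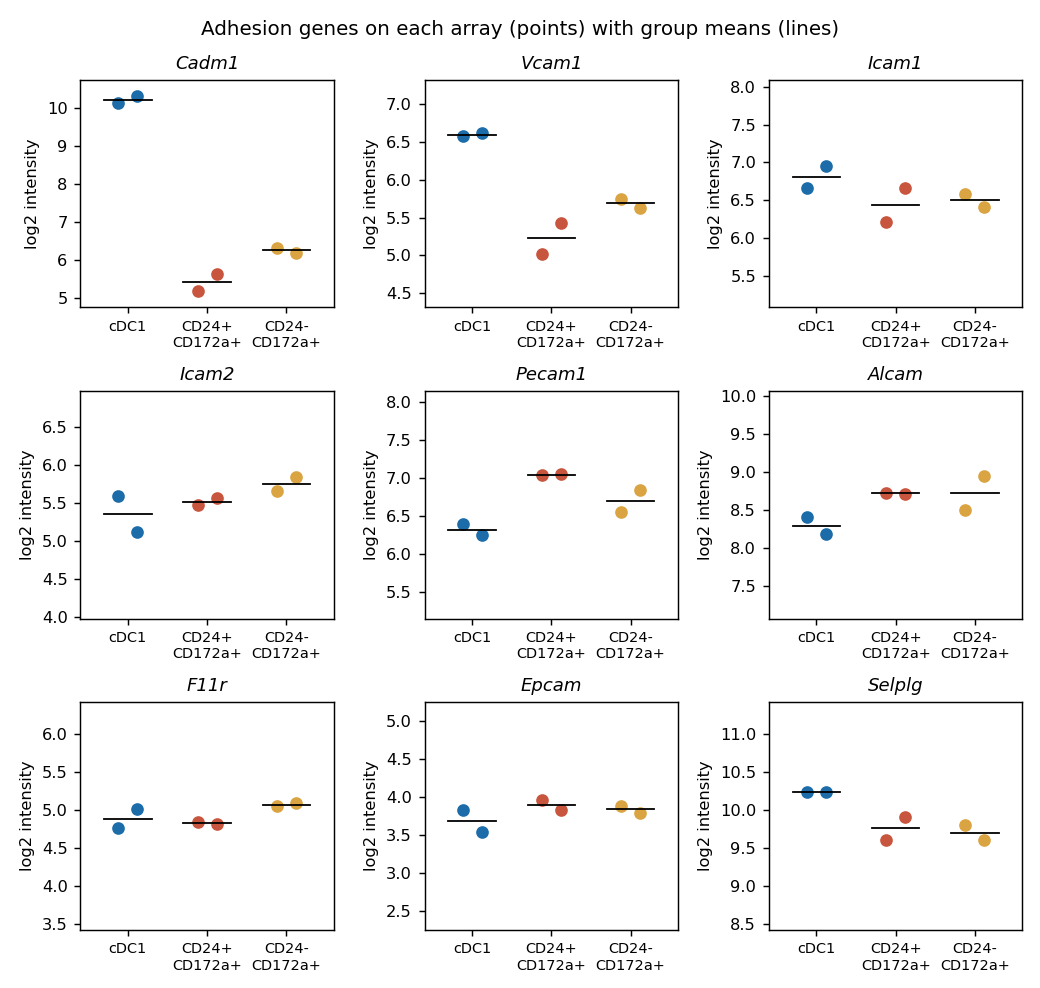
Log2 intensity of the 9 adhesion genes on each of the 6 arrays (points, 2 for each population) with the mean of each group (line). Each panel covers 3 log2 units except that of Cadm1, which covers 6; Cadm1 and Vcam1 are high in cDC1, and the other panels show smaller steps.

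Cadm1 separated cDC1 from both cDC2 populations more widely than any other gene of the family. Its log2 intensity was 10.12 and 10.31 on the cDC1 arrays, 5.17 and 5.63 on the CD24+CD172a+ cDC2 arrays, and 6.31 and 6.18 on the CD24-CD172a+ cDC2 arrays. CD24+CD172a+ cDC2, which share CD24 with cDC1, lay farthest from them. Cadm1 was 28.1-fold lower in CD24+CD172a+ cDC2 than in cDC1 (log2 difference -4.81 ± 0.17, SE, n = 2 arrays a group, adjusted p = 2.93e-08) and 15.6-fold lower in CD24-CD172a+ cDC2 (-3.97 ± 0.17, adjusted p = 8.84e-08). These comparisons share the cDC1 arrays. Of all genes, 0.0652% and 0.191% differed by more, in either direction. In RNA from sorted cells, fewer cells that hold a transcript and less transcript per cell cannot be told apart.

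Between the cDC2 populations Cadm1 was 1.79-fold lower in the CD24+CD172a+ group (-0.84 ± 0.17, 95% confidence interval -1.21 to -0.47, adjusted p = 0.0407). When an array is left out, its group has a single array, which is assumed to vary like the other groups. Without any 1 of the 6 arrays the call was lost (adjusted p from 0.0598 to 0.247), with a difference between -1.08 and -0.61. It was kept in 9 of 18 alternative settings, all with 6 arrays. In the same comparison 8 of the 10 listed cDC1 markers had a lower mean in CD24+CD172a+ cDC2 and 2 a higher one (median difference -0.15). Of all 19938 genes, 10458 had a lower mean there. Among the 8, Clec9a, Itgae and Tlr3 differed by only -0.06 to -0.01. The same 8 had the order of groups of Cadm1, since all 10 markers were highest in cDC1. The summed intensity of the 10 markers was 691 to 830 in CD24+CD172a+ and 691 to 726 in CD24-CD172a+ cDC2, against 10355 to 11284 in cDC1. Cd8a, the CD8 alpha chain, rose by 2.11 and Cd36, a scavenger receptor, fell by 1.03 (adjusted p = 0.000925 and 0.00703), while the other 8 were not called. Of all genes 1.46% were called in this comparison. Among markers of other cells, 7 of 14 monocyte and macrophage markers fell in CD24+CD172a+ cDC2 and none rose (summed intensity 3492 to 4055 against 5739 to 5972). Of 8 plasmacytoid dendritic cell markers, 3 rose and none fell (774 to 792 against 511 on both arrays). Their part in the difference of Cadm1 was not tested.

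The genes nearest to Cadm1 in pattern, by Euclidean distance over the 6 arrays after centring each gene, were Rab7b, a small GTPase of endosomes (distance 0.73 log2 units), Clec9a, the receptor of cDC1 for dead cells (0.87), and Cd36 (0.89). Their correlation with Cadm1 over these arrays was 0.991, 0.986 and 0.999. Rab7b had a mean of 9.57 in cDC1, against 5.28 in the CD24+CD172a+ subset and 5.51 in the CD24-CD172a+ one. Cd36 had means of 4.72 and 5.76 in the cDC2 populations, a step in the direction of that of Cadm1. Clec9a and Cd36 are also among the listed cDC1 markers. With 6 arrays in 3 groups such likeness is a description.

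CRTAM, the partner of CADM1 on lymphocytes, has its own gene in these data at a low level. Crtam read 4.44 and 5.01 in cDC1, with means of 3.78 in CD24+CD172a+ and 3.94 in CD24-CD172a+ cDC2, so that all these readings lay below the median of the arrays. It was called lower than in cDC1 in both cDC2 populations, by 0.94 and 0.79 (adjusted p = 0.00537 and 0.0137), and the cDC2 means lay near the 25th percentile. Background was not examined on these arrays. Cadm3, a close relative of Cadm1, ran the other way, at 4.92 and 4.93 in cDC1, 6.86 and 7.02 in CD24+CD172a+ cDC2, and 6.73 and 6.78 in CD24-CD172a+ cDC2. It rose by 2.01 ± 0.13 and 1.83 ± 0.13 (adjusted p = 1.94e-06 and 3.83e-06). Cadm4, another relative, differed from cDC1 by -0.02 and -0.12 and was not called.

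Vcam1 was also highest in cDC1. It read 6.57 and 6.61 on the cDC1 arrays, 5.02 and 5.43 on the CD24+CD172a+ cDC2 arrays, and 5.74 and 5.63 on the CD24-CD172a+ cDC2 arrays. The replicates of CD24+CD172a+ cDC2 lay farthest apart. Vcam1 was 2.58-fold lower in CD24+CD172a+ cDC2 than in cDC1 (-1.37 ± 0.15, adjusted p = 0.000134) and 1.88-fold lower in CD24-CD172a+ cDC2 (-0.91 ± 0.15, adjusted p = 0.00214). Both calls were kept without any 1 array, with the spread then taken from the groups that still had 2. Against a 1.5-fold change, limma's treat kept the first (adjusted p = 0.00794) and not the second (adjusted p = 0.517). Between the cDC2 populations Vcam1 was not called (-0.46 ± 0.15, 95% confidence interval -0.80 to -0.12, adjusted p = 0.203).

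The summed level of 14 monocyte and macrophage markers had the same order of groups as Vcam1. It was 6122 to 6136 in cDC1, 5739 to 5972 in CD24-CD172a+ cDC2 and 3492 to 4055 in CD24+CD172a+ cDC2. A sum of intensities weighs bright genes most, such as Lyz2, with means of 11.61 in cDC1, 10.20 in CD24+CD172a+ and 11.29 in CD24-CD172a+ cDC2. The median difference of the 14 markers from cDC1 was 0.02 and 0.29, so by the median cDC1 was not highest. Of all genes 13.6% and 15.7% were called in the comparisons with cDC1. The markers did not move as one: against cDC1, 4 fell and 2 rose in CD24+CD172a+ cDC2, and 2 fell and 5 rose in CD24-CD172a+ cDC2. Among them C1qa, a complement gene of tissue macrophages, was lowest in cDC1, at 4.13 against 4.34 and 5.22, and Mertk lay below the 25th percentile in each population. Of 12 endothelial markers, Flt1 alone was called in either comparison with cDC1 (-1.61 and -1.70), and their summed intensity was 352 to 357 in cDC1, 273 to 286 in CD24+CD172a+ cDC2 and 281 to 290 in CD24-CD172a+ cDC2. Of 10 stromal markers limma called 0 in each comparison (at most 1 had an unadjusted p under 0.05). Of the remaining lists, between the cDC2 populations 0 of 8 B cell, 8 T cell, 6 NK cell, 10 neutrophil and 7 erythroid markers were called. Against cDC1 the counts were 4, 1, 0, 1 and 0 in the CD24+CD172a+ subset, and 3, 2, 1, 2 and 0 in the CD24-CD172a+ one. The shares of all genes called in these 3 comparisons were 1.46%, 13.6% and 15.7%. The part of such cells in the level of Vcam1 was not tested.

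Klf3, a transcriptional repressor, Lnx2, a ubiquitin ligase, and Mapre2, which binds microtubule ends, were nearest to Vcam1 in pattern, at distances of 0.15, 0.16 and 0.23 log2 units. Klf3 had a mean of 8.59 in cDC1, against 7.33 in the CD24+CD172a+ subset and 7.74 in the CD24-CD172a+ one.

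Pecam1, the gene of CD31, rose in CD24+CD172a+ cDC2. It read 6.39 and 6.25 on the cDC1 arrays, 7.04 and 7.05 on the CD24+CD172a+ cDC2 arrays, and 6.56 and 6.85 on the CD24-CD172a+ cDC2 arrays. It was 1.65-fold higher in CD24+CD172a+ cDC2 than in cDC1 (0.72 ± 0.14, adjusted p = 0.00573). The call was lost without cDC1 replicate 2 (0.65, adjusted p = 0.0537) and against a 1.5-fold change. CD24-CD172a+ cDC2 lay between, and neither its difference from cDC1 (0.39 ± 0.14, 95% confidence interval 0.07 to 0.70, adjusted p = 0.101) nor that between the cDC2 populations (0.33 ± 0.14, 0.02 to 0.65, adjusted p = 0.325) was called. Platelets and endothelium are rich in CD31. Of 7 platelet markers, Pf4 and Ppbp lay below the 25th percentile in each population and 2 lay above the median. Of 12 endothelial markers, Tek and Emcn lay below the 25th percentile and 2 or 3, by population, above the median. Clec1b, a platelet receptor gene, was called higher in CD24-CD172a+ cDC2 than in cDC1 (1.30 ± 0.19, adjusted p = 0.00101), and in CD24+CD172a+ cDC2 it read 0.43 above cDC1 and was not called (adjusted p = 0.215). The summed platelet markers were 188 to 194 in cDC1, 183 to 192 in CD24+CD172a+ cDC2 and 218 to 247 in CD24-CD172a+ cDC2. The part of such cells in the level of Pecam1 was not tested.

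Selplg was highest in cDC1. It read 10.24 on both cDC1 arrays, 9.60 and 9.91 on the CD24+CD172a+ cDC2 arrays, and 9.80 and 9.60 on the CD24-CD172a+ cDC2 arrays. The cDC2 groups overlapped each other, and both means lay below that of cDC1. Selplg was 1.45-fold lower in CD24-CD172a+ cDC2 than in cDC1 (-0.54 ± 0.15, adjusted p = 0.0301), a call lost without cDC1 replicate 1 or 2 or CD24-CD172a+ replicate 2 (adjusted p = 0.132, 0.117 and 0.153) and after cyclic loess normalisation (adjusted p = 0.0607), and not made against a 1.5-fold change. Its difference in CD24+CD172a+ cDC2 was -0.48 ± 0.15 and was not called (95% confidence interval -0.81 to -0.16, adjusted p = 0.0549), though 4 of 18 alternatives called it. The cDC2 populations themselves differed by 0.06 (95% confidence interval -0.27 to 0.38, adjusted p = 0.904), so the pair of comparisons is not shown to differ.

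**Figure D2:**
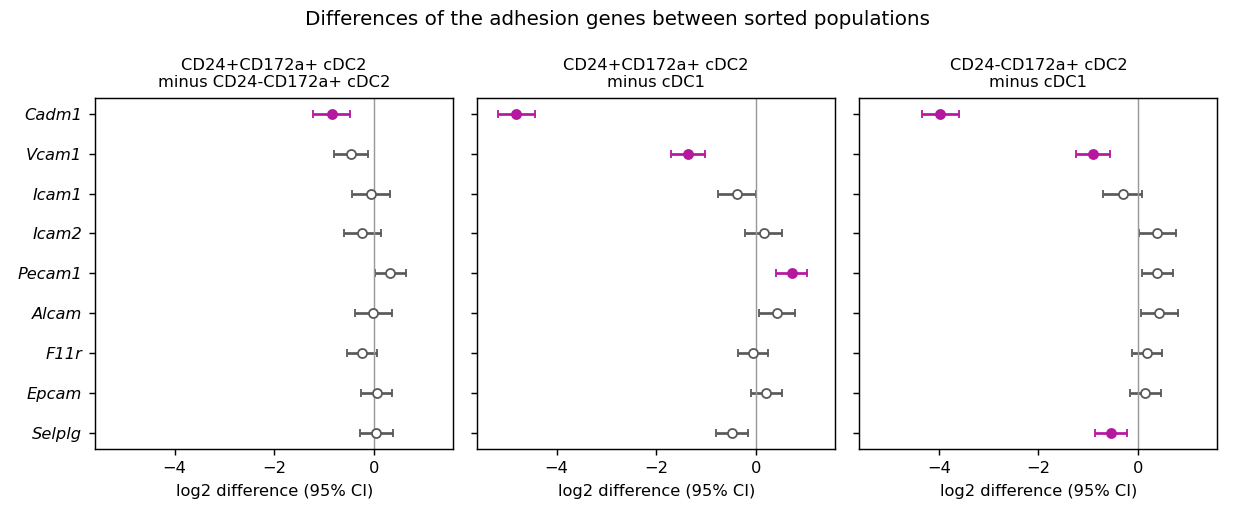
Log2 difference of each adhesion gene in the 3 pairwise comparisons, with 95% confidence intervals from limma (filled and coloured: adjusted p under 0.05). Cadm1 differs by -4.81 and -3.97 from cDC1, and all intervals of genes not called lie between -0.81 and 0.80.

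Icam1, Icam2, F11r, Alcam and Epcam were not called in any comparison. Icam1 read 6.66 and 6.96 in cDC1, 6.22 and 6.66 in CD24+CD172a+ cDC2, and 6.58 and 6.42 in CD24-CD172a+ cDC2. The lower cDC1 array and the higher CD24+CD172a+ one had the same value to 2 decimals, so these groups met. Its differences from cDC1 were -0.37 (95% confidence interval -0.75 to 0.01) and -0.31 (-0.69 to 0.08), with adjusted p = 0.230 and 0.308, and the cDC2 populations differed by -0.06 (-0.44 to 0.32). Its relatives Icam4, which is its next neighbour in the RefSeq table, and Icam5 were not called either.

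Icam2, the constitutive LFA-1 ligand, read 5.60 and 5.12 in cDC1, 5.47 and 5.57 in CD24+CD172a+ cDC2, and 5.66 and 5.84 in CD24-CD172a+ cDC2. The cDC1 arrays spanned the CD24+CD172a+ ones. Its difference from cDC1 was 0.16 (-0.22 to 0.53) in CD24+CD172a+ cDC2 and 0.39 (0.02 to 0.76) in CD24-CD172a+ cDC2 (adjusted p = 0.670 and 0.170). F11r read 4.76 and 5.02 in cDC1, 4.84 and 4.82 in CD24+CD172a+ cDC2, and 5.05 and 5.09 in CD24-CD172a+ cDC2. Its differences ran from -0.24 to 0.18 over the 3 comparisons. Jam2 and Jam3, the other junctional adhesion molecules, were not called.

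Alcam read 8.40 and 8.18 in cDC1, 8.72 and 8.71 in CD24+CD172a+ cDC2, and 8.50 and 8.95 in CD24-CD172a+ cDC2. Both cDC2 means lay above that of cDC1. The differences of 0.43 in each population were not called (95% confidence intervals 0.06 to 0.79 and 0.07 to 0.80, adjusted p = 0.130 and 0.114). After cyclic loess normalisation, Alcam and Pecam1 were called higher in CD24-CD172a+ cDC2 than in cDC1 (0.52 and 0.47, adjusted p = 0.0490 and 0.0453), as was Alcam without CD24-CD172a+ replicate 1 (0.66, adjusted p = 0.0300). The cDC2 populations could not be ordered (95% confidence interval of the difference -0.37 to 0.36). Cd6, the gene of its ligand, was not called.

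Epcam gave low readings, near the 25th percentile of the arrays, in all populations. It read 3.83 and 3.54 in cDC1, 3.97 and 3.83 in CD24+CD172a+ cDC2, and 3.89 and 3.79 in CD24-CD172a+ cDC2. The groups overlapped, and differences ran from 0.06 to 0.21. At this level the arrays give no order of the populations, since background was not examined. Of the claudins listed as its binding partners, Cldn7 read below the median on every array. Its values were 4.25 and 4.11 in cDC1, 3.98 and 4.04 in CD24+CD172a+ cDC2, and 3.68 and 3.90 in CD24-CD172a+ cDC2. Cldn1, one of the claudins that EPCAM is known to bind, stepped down through all 3 groups, at 8.41 and 8.47 in cDC1, 6.88 and 6.56 in CD24+CD172a+ cDC2, and 5.98 and 5.97 in CD24-CD172a+ cDC2. Against cDC1 it fell by 1.72 and fell by 2.47 (adjusted p = 1.36e-05 and 8.92e-07) and was higher in CD24+CD172a+ than in CD24-CD172a+ cDC2 by 0.75 ± 0.14 (adjusted p = 0.0360), which was lost whichever array was left out.

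Counted over the family, 1 or 3 of the 9 genes were called in each comparison. In the cDC2 comparison 1 of 9 was called (Cadm1, lower), where 1.46% of all genes were (0.808% higher, 0.652% lower). Against cDC1, 3 of 9 were called in CD24+CD172a+ cDC2 (Cadm1 and Vcam1 lower, Pecam1 higher), where 13.6% of all genes were (7.11% higher, 6.52% lower), and 3 of 9 in CD24-CD172a+ cDC2 (Cadm1, Vcam1 and Selplg lower), where 15.7% were (6.83% higher, 8.91% lower). Against a 1.5-fold change, treat called 0.0401% of all genes between the cDC2 populations, 3.59% in CD24+CD172a+ and 3.65% in CD24-CD172a+ cDC2 against cDC1. Over 9 genes these counts describe the family and show nothing particular to it. The median difference of the 9 genes was -0.06, -0.06 and 0.15 in these comparisons, against -0.01, -0.03 and 0.00 for all genes. Among all genes 161 were higher and 130 lower in CD24+CD172a+ than in CD24-CD172a+ cDC2, a split that median centring moved to 213 and 111.

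**Figure D3:**
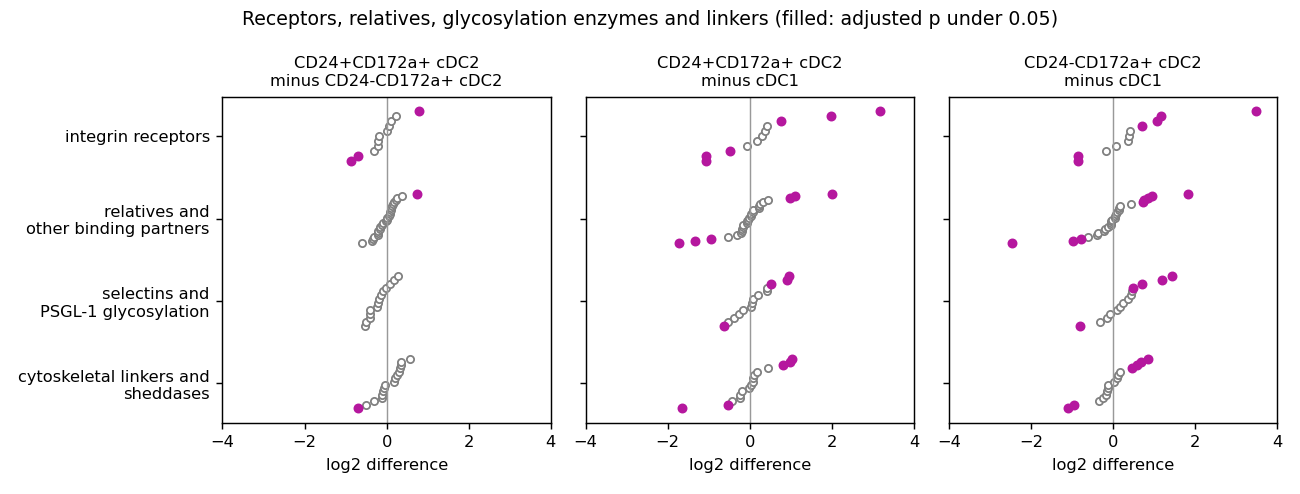
Log2 difference of 67 genes of 4 partner lists in the 3 comparisons, 1 point for each gene (filled: adjusted p under 0.05), sorted within each list. Few genes are filled between the cDC2 populations, and Itgam stands farthest right against cDC1, at 3.18 and 3.49.

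Integrins are the receptors of the ICAMs and of VCAM1, and dendritic cells carry them too. Of 11 measured, 3 rose and 3 fell in CD24+CD172a+ cDC2 against cDC1 (median 0.30), and 4 rose and 2 fell in CD24-CD172a+ cDC2 (median 0.39), where 13.6% and 15.7% of all genes were called. Itgam, the alpha chain of Mac-1, rose by 3.18 ± 0.21 and 3.49 ± 0.21 (adjusted p = 2.22e-06 and 1.09e-06), and Itgb3, which pairs with the alpha V chain, by 1.97 ± 0.16 and 1.18 ± 0.16 (adjusted p = 1.36e-05 and 0.000575). Itgb1, the beta chain of VLA-4, fell by 1.07 ± 0.13 and 0.86 ± 0.13 (adjusted p = 0.000214 and 0.000973), and Itgal, the alpha chain of LFA-1, fell by 1.07 ± 0.17 in CD24+CD172a+ cDC2 (adjusted p = 0.00173) and by 0.85 in CD24-CD172a+ cDC2 (adjusted p = 0.00671). Itgal read 7.89 and 7.53 in cDC1 and 6.43 to 6.86 on the 4 cDC2 arrays. Itgb2, the beta chain of LFA-1 and Mac-1, and Itga4, the alpha chain of VLA-4, were not called. Itgav, the alpha V chain, is among the 3 that fell in CD24+CD172a+ cDC2, where Itgb3 rose. It read 7.45 and 7.40 in cDC1, 6.85 and 7.04 in CD24+CD172a+ cDC2, and 7.70 and 7.92 in CD24-CD172a+ cDC2. Itgb2, Itga4 and, against cDC1, Itgav were singled out after their values were seen. So were Crtam, Cadm4, Cldn7, the relatives above that were not called, and Itgal in CD24-CD172a+ cDC2. The same holds for Ptpn11 in CD24+CD172a+ and Epb41l3 in CD24-CD172a+ cDC2, given below.

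Between the cDC2 populations 3 of the 11 integrins were called, against 1.46% of all genes. Itgav and Itga9 fell by 0.87 ± 0.14 and 0.70 ± 0.13 in CD24+CD172a+ cDC2 and Itgb3 rose by 0.79 ± 0.16 (adjusted p = 0.0171, 0.0342 and 0.0462). None was called without CD24+CD172a+ replicate 1 or 2 or without CD24-CD172a+ replicate 2. The call of Itga9 was also lost on leaving out CD24-CD172a+ replicate 1, and without either cDC1 array that of Itgb3 was. The monocyte and macrophage markers that fell in the same comparison are given above, and their part in these integrin differences was not tested. Itga9 in CD24-CD172a+ cDC2 rose against cDC1 too, by 1.08 ± 0.13 (adjusted p = 0.000237). The alpha 9 beta 1 integrin is another receptor of VCAM1.

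Among relatives and other binding partners, 26 of 29 listed genes were measured. Against cDC1 3 rose and 3 fell in CD24+CD172a+ cDC2, 5 rose and 3 fell in CD24-CD172a+ cDC2, and between the cDC2 populations 1 rose and none fell, where 13.6%, 15.7% and 1.46% of all genes were called. Beside Cadm3 and Cldn1, Pvr, the poliovirus receptor and a ligand of DNAM-1 and TIGIT, rose by 0.97 ± 0.13 and 0.96 ± 0.13 (adjusted p = 0.000381 and 0.000395). Jaml, which encodes a junctional adhesion molecule-like receptor, fell by 1.33 ± 0.15 and 0.97 ± 0.15 (adjusted p = 0.000168 and 0.00144). The median of the list was -0.04, 0.01 and 0.01 in the same order.

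Of 14 genes measured in the list of selectins and glycosylation enzymes, 3 rose and 1 fell in CD24+CD172a+ cDC2 against cDC1 (median 0.07), and 4 rose and 1 fell in CD24-CD172a+ cDC2 (median 0.30). Of all genes 13.6% were called in the first comparison (7.11% higher) and 15.7% in the second (6.83% higher). Fut4, a fucosyltransferase, rose by 0.91 ± 0.17 and 1.43 ± 0.17 (adjusted p = 0.00387 and 0.000181), Gcnt1, which builds core 2 branches, by 0.96 ± 0.13 and 1.20 ± 0.13 (adjusted p = 0.000551 and 0.000110), and C1galt1, which makes the core 1 structure, by 0.53 ± 0.15 and 0.72 ± 0.15 (adjusted p = 0.0420 and 0.00810). Tpst1, a tyrosine sulphotransferase, fell by 0.62 ± 0.14 and 0.80 ± 0.14 (adjusted p = 0.0154 and 0.00314). The calls of Fut4 and Gcnt1 were kept without any 1 array, while in CD24+CD172a+ cDC2 C1galt1 was kept only without CD24+CD172a+ replicate 2, and Tpst1 was lost without either cDC1 array or CD24+CD172a+ replicate 2. In CD24-CD172a+ cDC2 C1galt1 was lost without cDC1 replicate 2. In the cDC2 comparison limma called 0 of the 14, beside 1.46% of all genes. Unadjusted p was under 0.05 for 5 of the 14, and for 2799 of all 19938 genes. The smallest p belonged to St3gal3, a sialyltransferase (-0.50 ± 0.13, adjusted p = 0.0925), and Tpst2 (-0.42 ± 0.13, adjusted p = 0.184).

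Of 16 cytoskeletal linkers and sheddases measured, 3 rose and 2 fell in CD24+CD172a+ cDC2 against cDC1, and 4 rose and 2 fell in CD24-CD172a+ cDC2, beside 13.6% and 15.7% of all genes called. Actn1, which encodes alpha-actinin and ties ICAM and integrin tails to actin, fell by 1.66 ± 0.15 and 0.96 ± 0.15 (adjusted p = 2.30e-05 and 0.00115). Afdn, the nectin linker afadin, rose by 0.98 ± 0.14 and 0.67 ± 0.14, the latter call lost without cDC1 replicate 2, and Ptpn6, the phosphatase SHP-1 that docks on PECAM1, by 1.03 ± 0.15 and 0.86 ± 0.15. Ptpn11, which encodes SHP-2, fell by 1.10 ± 0.14 in CD24-CD172a+ cDC2. It read 7.93 and 7.79 in cDC1 and was also lower, at 7.34 and 7.31, in CD24+CD172a+ cDC2. Epb41l3, of the protein 4.1 family that binds CADM1, rose by 0.81 ± 0.14 in CD24+CD172a+ cDC2 from a cDC1 mean of 3.86, below the 25th percentile. Of the 16 genes Actn1 alone was called between the cDC2 populations (-0.70 ± 0.15, adjusted p = 0.0499), beside 1.46% of all genes. Its call too was lost whichever array was left out.

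**Figure D4:**
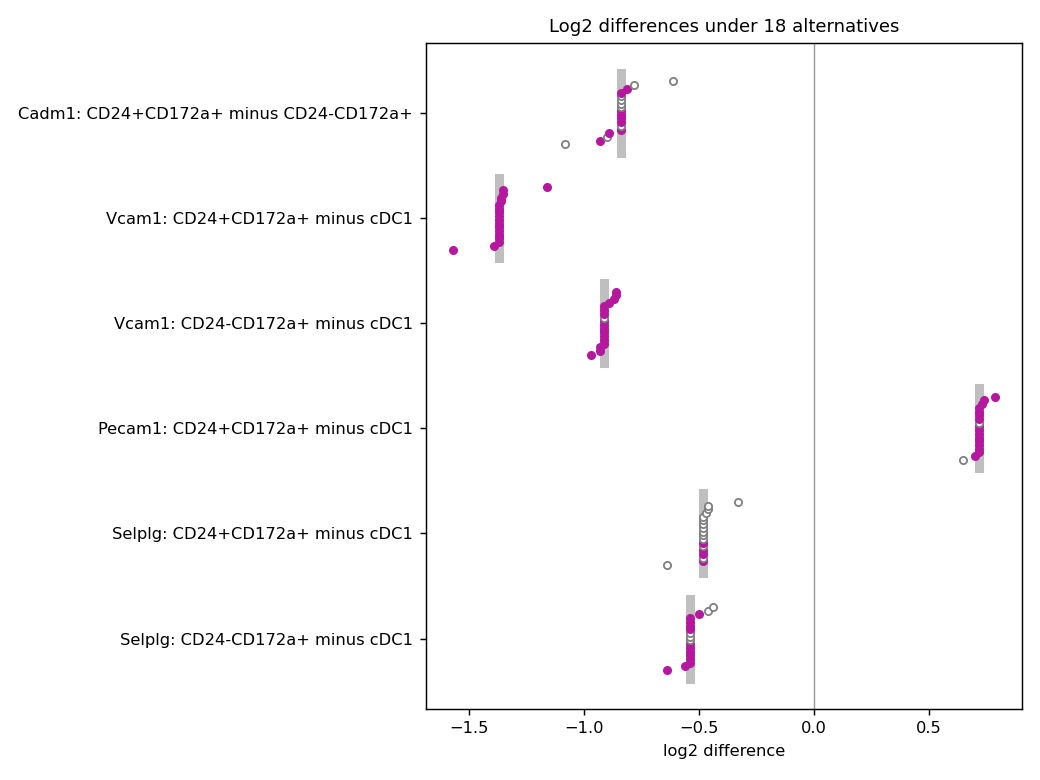
Log2 difference of Cadm1, Vcam1, Pecam1 and Selplg in 6 comparisons under each of 18 alternative settings (points; filled: adjusted p under 0.05), with the value as reported as a grey bar. Both comparisons of Vcam1 with cDC1 stay filled without any 1 array, while Cadm1 between the cDC2 populations is open in 9 settings.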

How the data were processed

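RNA from sorted splenic dendritic cells was amplified, biotin-labelled and hybridised to 6 Affymetrix arrays, per the labels' protocols. The authors deposited 1 intensity for each probe set and array on a linear scale, and the submitters' processing notes name Affymetrix Expression Console and RMA. RMA corrects background, quantile-normalises and combines probes, so array totals carry no information and a general shift between groups would not show. The log2 of the deposited intensity was taken here.

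Of 28853 probe sets, 21789 had 1 gene symbol in the platform annotation, 1621 several and 5443 none. Gene IDs of 21698 matched a GRCm38.p6 RefSeq table. For 999 genes with several probe sets the brightest was kept. All 6 arrays entered a single limma fit (version 3.58.1, R 4.3.3; lmFit, eBayes; 3 residual and 7.31 prior degrees of freedom), with 3 contrasts and Benjamini-Hochberg adjustment over 19938 genes at 0.05. The code of the fit was tried on data simulated from its own variance model, which does not test whether that model holds for these arrays. Figures were drawn with matplotlib 3.10.9.

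The 9 adhesion genes, 4 partner lists and 12 marker lists were chosen with earlier results of these data known. Named partners are up to 4 called genes of the smallest p per list and comparison (up to 2 where none was called). For adhesion genes whose group means span at least 1 log2 unit, the 3 genes nearest in Euclidean distance are named. Alternatives covered filters, probe set choice, normalisation, variance models, treat, the replicate number as a block and each array left out. Background was not examined on the arrays, so differences between low readings may be understated.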

Additional observations from a re-analysis of the deposited data

How the results depend on the processing

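Of 477 values of adhesion genes under 18 alternatives, 443 kept their direction and their side of the threshold, 17 lost the call, 7 gained it and 10 turned direction, none of those 10 being called. Between the cDC2 populations 291 genes were called, against 437 without genes below the median, 464 with an intensity trend and robust variance, 187 with only the 2 groups compared and 8 with treat against a 1.5-fold change. No adhesion gene (0 of 9) was called there with all probe sets, only the 2 groups or treat. Against cDC1, treat called 715 genes in CD24+CD172a+ and 728 in CD24-CD172a+ cDC2, with 1 adhesion gene in the latter. With 1 array left out, genes called ranged from 20 to 187 between the cDC2 populations (20 without CD24+CD172a+ replicate 1, 44 without its replicate 2, 98 and 76 without CD24-CD172a+ replicates 1 and 2, 187 without either cDC1 array), from 1781 to 2769 in CD24+CD172a+ and from 1922 to 2839 in CD24-CD172a+ cDC2 against cDC1. Adhesion genes called ranged from 0 to 0, 2 to 3 and 2 to 4. Fewer arrays leave fewer degrees of freedom.

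Turned in direction between the cDC2 populations were Alcam with median centring (0.03) and, over the fits with 1 array left out, Alcam (-0.23 to 0.22), Icam1 (-0.28 to 0.16), Selplg (-0.10 to 0.21), Epcam (-0.01 to 0.13) and Sirpa (-0.18 to 0.08). In CD24+CD172a+ cDC2 against cDC1 they were Icam2 (-0.08 to 0.39) and F11r (-0.20 to 0.07). The cause was not tested. Epcam was dropped by both filters on dim genes and F11r by the stricter.

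With the replicate number as a block, 411, 2918 and 3323 genes were called, and no adhesion gene changed its call. Same-numbered arrays deviated together only weakly (correlations of 0.084, 0.024 and 0.084), and nothing in the labels says that the number pairs them.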
